A study of Mus musculus with 14 samples.

Results

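Macrophages derived from mouse embryonic stem (ES) cells carried 5275 promoter sites where a peak of the transcription factor PU.1 overlapped a peak of C/EBPβ. These sites were selected by peak position alone. A site counted when its PU.1 peak was centred no more than 2 kb from a start site of transcription (TSS) of a RefSeq protein-coding transcript (mm10) and shared at least 1 bp with a C/EBPβ peak of the same cells. They made up 31.0% of the 17041 macrophage PU.1 promoter peaks, within a list of 82866 PU.1 peaks in all. The 11766 PU.1 promoter peaks that overlapped no C/EBPβ peak, called PU.1-alone here, served as the comparison. The overlap itself chose the sites, so its frequency is a description and was not tested.

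PU.1, encoded by Spi1, is an ETS family factor that binds purine-rich GGAA sequences and is required for the formation of macrophages. C/EBPβ is a basic leucine zipper factor that binds palindromic sequences as a dimer, alone or with ATF family partners, and takes part in the inflammatory and differentiation programs of myeloid cells. In macrophages both factors are known to bind many enhancers and promoters of genes for phagocytosis, microbial sensing and cytokine production.

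The lists came from chromatin immunoprecipitation followed by sequencing (ChIP-seq) of an ES cell line of strain 129 with a Brachyury-GFP reporter, differentiated in culture and sorted at successive stages. Macrophages (MAC) were CD11b+ cells obtained by further differentiation of CD41+ cells, and hematopoietic progenitors (HP) were the CD41+ cells themselves. Mesoderm (MES) was Bry.GFP+ and FLK1-, hemangioblasts (HB) were Bry.GFP+ and FLK1+, and hemogenic endothelium (HE) was Tie2+, Ckit+ and CD41-. The macrophage lists were for PU.1, C/EBPβ and RUNX1, the HP lists for PU.1, C/EBPβ, RUNX1, GFI1B, GATA1 and GATA2, the MES lists for C/EBPβ and ELK4, the HB lists for C/EBPβ and GATA2, and the HE list for C/EBPβ. None of the groups used here carried a further treatment or a mutation according to the labels, and all came from the same reporter line.

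Each factor at each stage gave 1 list, so there were 14 lists and no replicates, and no difference below can be set against a spread between replicates. Tests compare classes of peaks within 1 library, not conditions, and intervals cover counting error only. The lists held between 72 peaks (MAC RUNX1) and 82866 peaks (MAC PU.1), 158488 in all, and every peak was 400 bp wide with no height or p-value, so the depth behind a peak is unknown. PU.1 and C/EBPβ were assayed in separate chromatin samples, and an overlap therefore does not show that both proteins sat on the same molecule of DNA. Expression was not used here, and the identity of the cells rests on the sort.

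Before the counts, a few of the sites are shown as sequence, read from the RefSeq GRCm38 genome on the strand of the named gene, 5′ to 3′, outside annotated exons. Capitals mark the PU.1 consensus GAGGAAGT and the C/EBP consensus (the palindrome written TTGC, a purine, a pyrimidine, AA), each in either orientation. Tfeb, which encodes a transcription factor that controls lysosome formation, is shown because it was the single site that lay on an HP PU.1 peak and an HP C/EBPβ peak and held both consensus sequences. The stretch is chr17:47754343-47754447 on the plus strand and ends 18 bp upstream of the Tfeb TSS. The consensus sequences start 7 bp apart and share a base.
Tfeb: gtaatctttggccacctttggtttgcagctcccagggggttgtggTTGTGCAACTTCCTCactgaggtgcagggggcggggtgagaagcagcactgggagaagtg

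A pair of genes shows both classes of site within the same promoter region. Ncf4 encodes a cytosolic subunit of the phagocyte NADPH oxidase. Its site with C/EBPβ (chr15:78244609-78245008, centred 3 bp upstream of the nearest TSS) lay on an HP PU.1 peak. Its PU.1-alone site (chr15:78243911-78244310, centred 54 bp upstream of the nearest TSS) did not. The stretches shown are parts of these sites, chr15:78244616-78244713 (98 to 195 bp upstream) and chr15:78244043-78244140, both on the plus strand. Itgb2 encodes the β2 integrin chain that pairs with CD11b, the sorting marker. Its PU.1-alone site (chr10:77530135-77530534, centred 5 bp downstream of a TSS) lay on an HP PU.1 peak. A site with C/EBPβ (chr10:77531899-77532298) was centred 1728 bp downstream of its nearest TSS and lay on no other list. The stretches shown from them, on the plus strand, are chr10:77530257-77530328, which ends next to the TSS, and chr10:77532022-77532119, 1652 to 1749 bp downstream. Another Itgb2 site with C/EBPβ (chr10:77530932-77531331, 761 bp downstream) did lie on an HP PU.1 peak.
Ncf4 with C/EBPβ: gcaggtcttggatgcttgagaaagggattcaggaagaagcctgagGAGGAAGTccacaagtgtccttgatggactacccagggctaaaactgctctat
Ncf4 PU.1-alone: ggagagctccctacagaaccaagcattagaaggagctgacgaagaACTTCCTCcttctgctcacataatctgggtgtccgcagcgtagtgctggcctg
Itgb2 with C/EBPβ: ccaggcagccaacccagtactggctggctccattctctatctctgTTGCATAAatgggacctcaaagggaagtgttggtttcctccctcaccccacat
Itgb2 PU.1-alone: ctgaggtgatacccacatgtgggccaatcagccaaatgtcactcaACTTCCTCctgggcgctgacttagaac

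Promoter sites with C/EBPβ lay closer to the TSS than PU.1-alone sites. The median distance of the PU.1 peak centre to the nearest coding TSS was 289 bp (quartiles 70.0 and 888 bp) against 476 bp (quartiles 118 and 1034 bp). Within 500 bp of a TSS lay 61.4% of the sites with C/EBPβ and 51.5% of the PU.1-alone sites (odds ratio 1.50, adjusted p = 6.8e-33, Fisher's exact test, two-sided, Benjamini-Hochberg adjustment over 4 promoter features). The sites with C/EBPβ were also more often upstream of the TSS (51.3% against 45.4%, exact test, adjusted p = 1.8e-12) and more often had a second coding TSS on the other strand within 1 kb (10.4% against 8.46%, adjusted p = 4.1e-05).

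CpG-rich sequence, the hallmark of broadly expressed promoters, was more frequent at sites with C/EBPβ. A peak was called CpG-rich with at least 50% GC and a CpG observed/expected ratio of at least 0.6. This was the case for 2200 of 5275 sites with C/EBPβ (41.7%, 95% Clopper-Pearson interval 40.4 to 43.1%) and for 4002 of 11766 PU.1-alone sites (34.0%, 33.2 to 34.9%), a difference of 7.69 percentage points (Newcombe interval 6.11 to 9.28, exact test, adjusted p = 1.6e-21). Of 400 bp windows around all coding TSS, 45.6% were CpG-rich, and of all macrophage PU.1 peaks 8.17%. The difference was smaller when sites had to share at least 200 bp with the C/EBPβ peak (38.5% against 35.8%, odds ratio 1.12).

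**Figure D1:**
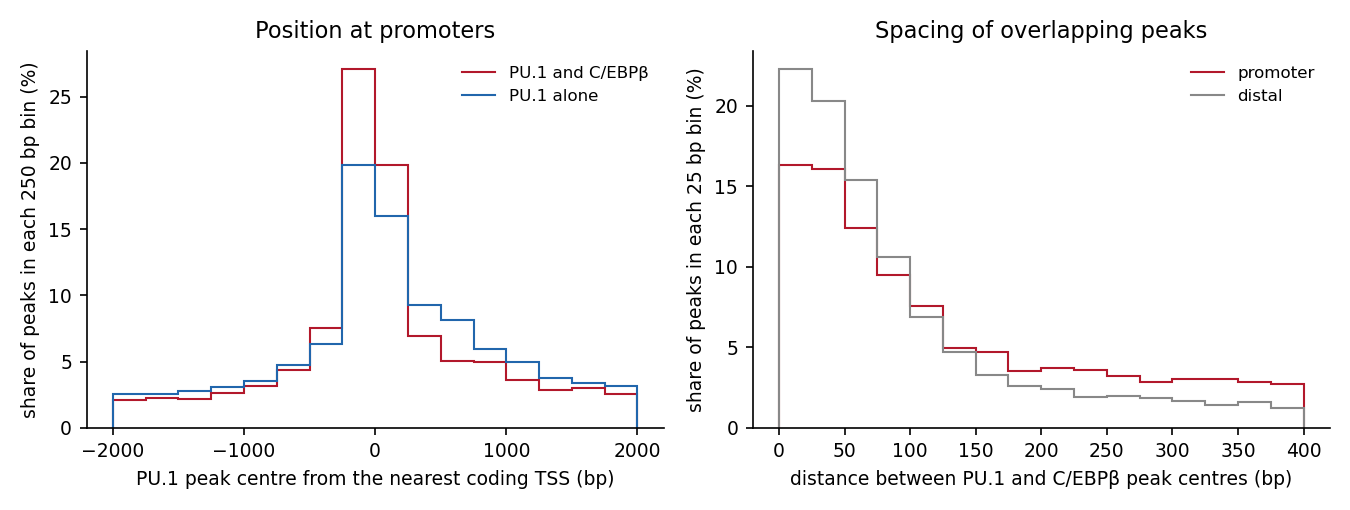
Position of promoter peaks. Left, share of PU.1 peaks (%) in 250 bp bins of the distance from peak centre to the nearest coding TSS in bp (negative, upstream), for the 5275 sites with C/EBPβ and the 11766 PU.1-alone sites. Right, share of peaks (%) in 25 bp bins of the distance between PU.1 and C/EBPβ peak centres in bp, for promoter sites and the 18354 distal sites. The 250 bp upstream of the TSS hold 27.1% of the sites with C/EBPβ and 19.8% of the PU.1-alone sites.

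PU.1 and C/EBPβ peak centres were a median of 88.0 bp apart at promoters (quartiles 38.0 and 200 bp), and 54.7% of the sites had centres within 100 bp. At the 18354 distal sites with both factors, the median was 60.0 bp (quartiles 27.0 and 123 bp). At the edges of the definition, 293 sites shared only 1 to 50 bp with the C/EBPβ peak, while 256 PU.1-alone sites had a C/EBPβ peak 0 to 49 bp away. Likewise 109 sites had their centre in the outermost 100 bp of the 2 kb window, and 94 peaks with C/EBPβ lay in the 100 bp beyond it. In total, 3654 PU.1-alone sites had a C/EBPβ peak within 1 kb, so that PU.1-alone describes a 400 bp window and not a whole promoter.

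The sequence of the sites differed between the classes. The C/EBP consensus was present in 319 sites with C/EBPβ (6.05%, 5.42 to 6.72%) and in 123 PU.1-alone sites (1.05%, 0.870 to 1.25%), an odds ratio of 6.09 (adjusted p = 1.7e-71, Fisher's exact test over 12 consensus sequences). The size depended on the letters, since the looser TTGCNNAA was present in 24.4% and 10.7%, an odds ratio of 2.69. The PU.1 consensus went the other way, with 630 sites with C/EBPβ (11.9%, 11.1 to 12.8%) and 1870 PU.1-alone sites (15.9%, 15.2 to 16.6%, odds ratio 0.718, exact test, adjusted p = 5.3e-11). In 400 bp around all coding TSS these sequences occurred in 2.14% and 3.37% of windows, which are centred on the TSS and not on a peak. Most sites with C/EBPβ (4357 of 5275, 82.6%) held neither of these exact sequences, close to the 83.3% of PU.1-alone sites, and both were held by 31 (0.588%) and 27 (0.229%), a difference that was not tested. In the CpG-rich sites taken alone, the PU.1 consensus did not differ detectably (6.55% against 7.57%, odds ratio 0.855, exact p = 0.137).

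Other letters also differed. The AP-1 consensus (TGA, C or G, TCA), bound by FOS and JUN dimers, was found in 8.76% of sites with C/EBPβ and 5.96% of PU.1-alone sites (exact test, adjusted p = 2.2e-10), and the CRE consensus TGACGTCA, bound by CREB and ATF factors, in 2.14% and 1.18% (adjusted p = 8.6e-06). The ETS sequence with a CpG (CCGGAAGT), typical of GABP and ELK sites at broadly expressed promoters, was found in 6.60% and 4.65% (exact test, adjusted p = 6.9e-07). The E-box CACGTG, bound by MYC, USF and TFEB family factors, was found in 9.61% and 7.58% (exact test, adjusted p = 1.9e-05), and TATAAA in 9.52% and 10.9% (adjusted p = 0.0106). Windows around all coding TSS held AP-1 in 5.06%, CRE in 2.04%, the ETS sequence in 4.91%, the E-box in 8.82% and TATAAA in 12.2%. For CRE and the E-box the sites with C/EBPβ were thus near ordinary promoters. Of all macrophage PU.1 peaks 11.4% held AP-1, more than either promoter class. The RUNX sequence TGTGGTT, the GC box GGGCGG and CCAAT also passed the test, with odds ratios of 1.16, 1.16 and 1.14. The GATA consensus (exact test, adjusted p = 0.0582, difference −0.771 percentage points, interval −1.52 to 0.00994) and the interferon element core GAAANNGAA (adjusted p = 0.898, difference 0.0719, interval −0.966 to 1.14) did not pass the threshold of 0.05. Both strands were searched, and a match is a description of letters, not of a binding site.

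A different contrast split the macrophage C/EBPβ promoter peaks by overlap with PU.1, with the letters counted in the C/EBPβ peak. The C/EBP consensus was rarer where PU.1 overlapped, as the PU.1 consensus was rarer in PU.1 peaks where C/EBPβ overlapped (odds ratio 0.718). The AP-1 consensus was found in 9.18% of the 5227 peaks with PU.1 and 11.2% of the 5090 without (odds ratio 0.799, exact test, adjusted p = 0.00117), and the C/EBP consensus in 8.05% and 14.7% (odds ratio 0.507, exact test, adjusted p = 1.6e-26). The CRE consensus (2.72% and 1.85%, exact test, adjusted p = 0.00597) and the ETS sequence with a CpG (5.97% and 1.83%, exact test, adjusted p = 7.6e-28) were more frequent with PU.1, as was the PU.1 consensus itself (9.60% and 1.45%).

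**Figure D2:**
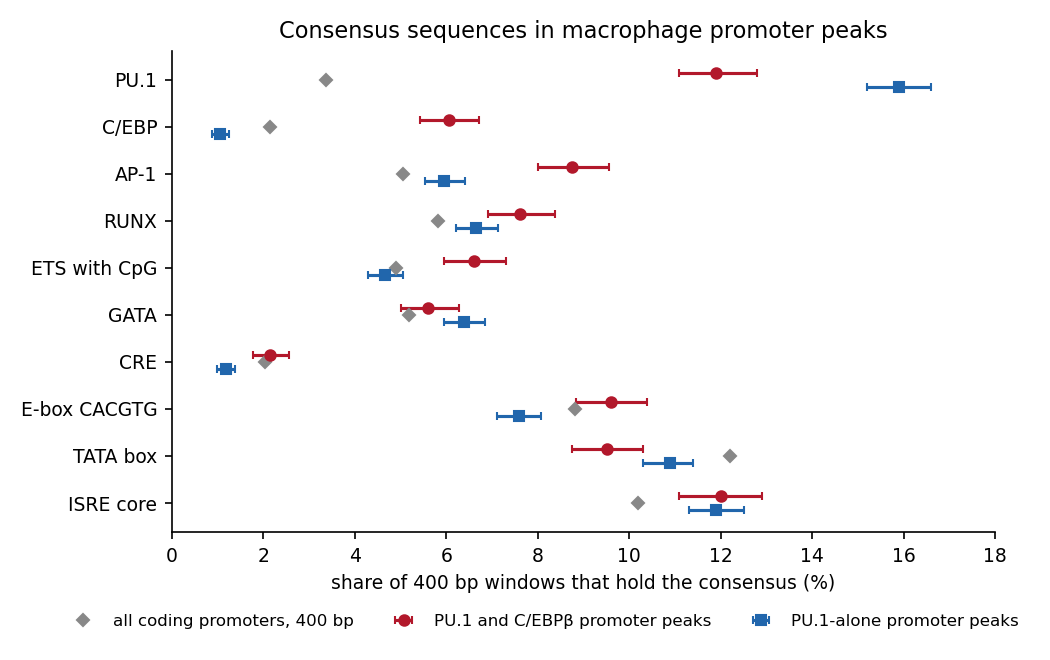
Share of 400 bp windows (%) that hold each consensus in sites with C/EBPβ (circles), PU.1-alone sites (squares) and windows around all coding TSS (diamonds). Bars are 95% Clopper-Pearson intervals. The C/EBP consensus stands at 6.05% against 1.05%, and the PU.1 consensus at 11.9% against 15.9%.

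Compared with the 18354 distal sites with both factors, promoter sites held the PU.1 consensus less often (11.9% against 19.3%, exact test, adjusted p = 3.8e-37), the AP-1 consensus less often (8.76% against 18.3%, adjusted p = 1.9e-68) and the C/EBP consensus less often (6.05% against 7.80%, adjusted p = 2.1e-05). The ETS sequence with a CpG was found in 6.60% of promoter sites and 0.801% of distal sites (odds ratio 8.75, exact test, adjusted p = 3.2e-116). The contrast of sites with and without C/EBPβ had the same direction at promoters and at distal peaks for PU.1 (odds ratios 0.718 and 0.562) and AP-1 (1.52 and 1.95), and its size differed between the locations for both (adjusted p = 1.1e-04 and 0.00123, chi-square test of equal odds over 23 features). The GC box (1.16 and 0.983, adjusted p = 0.00256, chi-square test) and CCAAT (1.14 and 0.980, adjusted p = 0.00123, chi-square test) differed too, with odds ratios above 1 at promoters and just under 1 at distal peaks. These were the 4 features that passed. For the C/EBP consensus the odds ratios were 6.09 and 5.04 (adjusted p = 0.393, the same chi-square test).

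Whether these promoters were already bound in the progenitors was asked of the HP lists. Of the 5275 sites, 760 (14.4%) lay on an HP PU.1 peak only, 372 (7.05%) on an HP C/EBPβ peak only, 107 (2.03%) on both, and 4036 (76.5%, 75.3 to 77.7%) on neither. Any of the 6 HP lists held 1524 sites (28.9%) and 1797 PU.1-alone sites (15.3%). Of the PU.1-alone sites, 1363 (11.6%) lay on an HP PU.1 peak only, 15 on an HP C/EBPβ peak only, 5 on both and 10383 (88.2%) on neither. The p-value cut of each list was set separately by the authors, so a site absent from an HP list is a site not called there.

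HP PU.1 peaks covered 867 sites with C/EBPβ (16.4%, 15.4 to 17.5%) and 1368 PU.1-alone sites (11.6%, 11.1 to 12.2%), against 12.8% of all macrophage PU.1 peaks. The difference was 4.81 percentage points (3.67 to 5.98, odds ratio 1.50, adjusted p = 9.6e-17, Fisher's exact test over 12 lists). It moved with the position of a peak in the deposited macrophage PU.1 list. The meaning of that order is not given in the sources used here, but the share of promoter peaks on an HP PU.1 peak fell along it, from 66.2% and 65.7% (with C/EBPβ and PU.1-alone) in the first decile to 1.51% and 1.15% in the last, and sites with C/EBPβ lay earlier (median position 34317 against 45392). Within deciles the common odds ratio was 0.998 (0.891 to 1.12, p = 0.996, Mantel-Haenszel chi-square test), so no difference between the classes was detectable at the same position in the list. This comparison was chosen after the order had been seen.

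The sequence contrasts were computed within deciles as well. The common odds ratio was 6.44 for the C/EBP consensus (5.19 to 7.99), 0.596 for the PU.1 consensus (0.539 to 0.660), 1.50 for AP-1 (1.33 to 1.70) and 1.40 for CpG-rich sequence (1.31 to 1.50). Sites with C/EBPβ made up 42.4% of promoter peaks in the first decile and between 24.9% and 26.2% in the last 4.

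**Figure D3:**
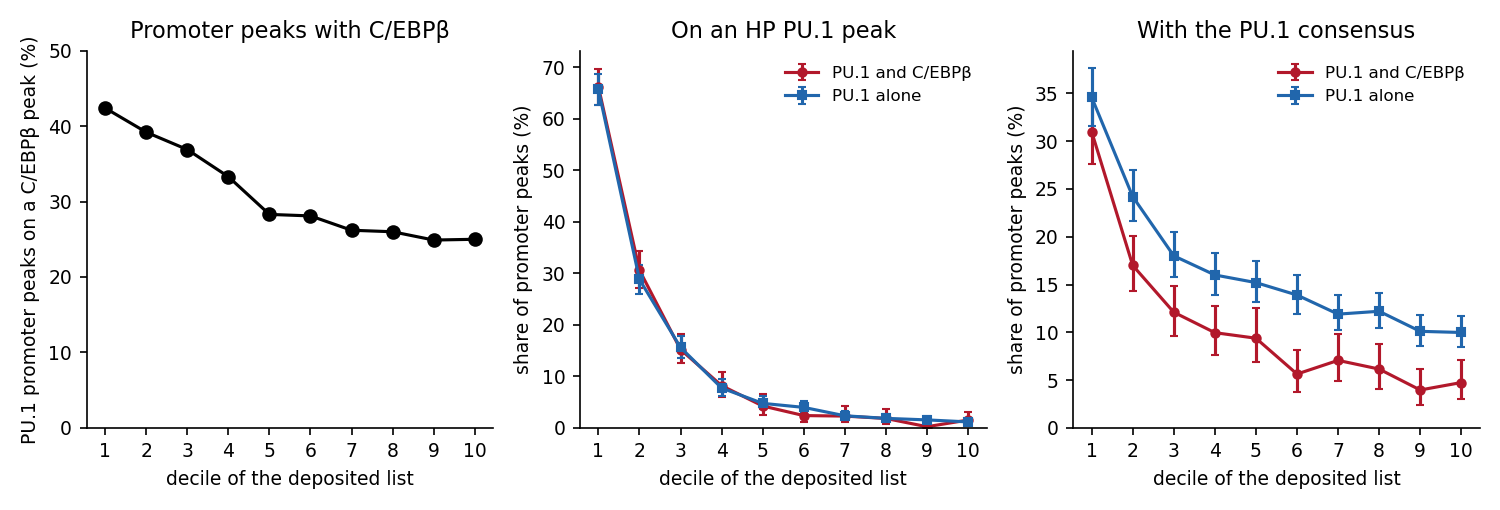
Macrophage PU.1 promoter peaks by decile of the deposited list (x axis, 1 to 10). Left, share of promoter peaks (%) on a C/EBPβ peak. Middle and right, share (%) of sites with C/EBPβ (circles) and PU.1-alone sites (squares) on an HP PU.1 peak and with the PU.1 consensus; bars are 95% Clopper-Pearson intervals. The HP PU.1 shares of the classes run together from 66.2% and 65.7% to 1.51% and 1.15%, while the PU.1 consensus stays lower at sites with C/EBPβ.

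HP C/EBPβ peaks covered 479 sites with C/EBPβ (9.08%, 8.32 to 9.89%) and 20 PU.1-alone sites (0.170%, 0.104 to 0.262%), against 1.73% of all macrophage PU.1 peaks. The odds ratio of 58.7 follows in large part from the definition, since 804 of 851 HP C/EBPβ promoter peaks (94.5%) lay on a macrophage C/EBPβ peak. It was 10.6 when the macrophage peaks had to share at least 200 bp. A comparison in which every peak was a called C/EBPβ peak is that of the macrophage C/EBPβ promoter peaks with and without PU.1. These classes were not alike otherwise, since 39.9% of those with PU.1 and 29.6% of those without were CpG-rich. Here HP C/EBPβ peaks covered 9.05% of 5227 peaks with PU.1 and 6.46% of 5090 peaks without (odds ratio 1.44, exact test, adjusted p = 2.6e-06). MES C/EBPβ peaks covered 3.08% and 3.22% (difference −0.142 percentage points, −0.821 to 0.534, exact test, adjusted p = 0.832).

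Progenitor lists of other factors also favoured the sites with C/EBPβ. RUNX1, a factor needed for blood formation, covered 204 sites with C/EBPβ in HP (3.87%) and 225 PU.1-alone sites (1.91%, odds ratio 2.06, exact test, adjusted p = 8.7e-13). GFI1B, a repressor of progenitors and erythroid cells, covered 196 (3.72%) and 252 (2.14%, odds ratio 1.76, exact test, adjusted p = 2.0e-08). HP GATA2 covered 41 and 54 (odds ratio 1.70, exact test, adjusted p = 0.0166), and HP GATA1 14 and 26 (odds ratio 1.20, adjusted p = 0.664, difference 0.0444 percentage points, −0.104 to 0.237). MES ELK4, an ETS factor bound in mesoderm, covered 92 and 117 (1.74% against 0.994%, exact test, adjusted p = 1.4e-04). Within deciles of the deposited order the common odds ratios were 2.04 for RUNX1, 1.70 for GFI1B, 1.66 for GATA2 and 1.66 for ELK4. HP RUNX1 and HP GFI1B peaks covered 7.55% and 6.27% of CpG-rich sites with C/EBPβ and 1.24% and 1.89% of the others, and PU.1-alone sites differed in the same way (4.30% and 3.42% of CpG-rich sites, 0.683% and 1.48% of the others). In sites that were not CpG-rich, the GFI1B difference was not detectable (1.89% against 1.48%, odds ratio 1.28, exact p = 0.148), and the odds ratio of 1.89 in CpG-rich sites did not differ detectably from it (p = 0.0558, chi-square test of equal odds). HB GATA2, a list of 97 peaks, covered none of the sites with C/EBPβ (upper limit 0.0699%) and 2 PU.1-alone sites (0.0170%).

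**Figure D4:**
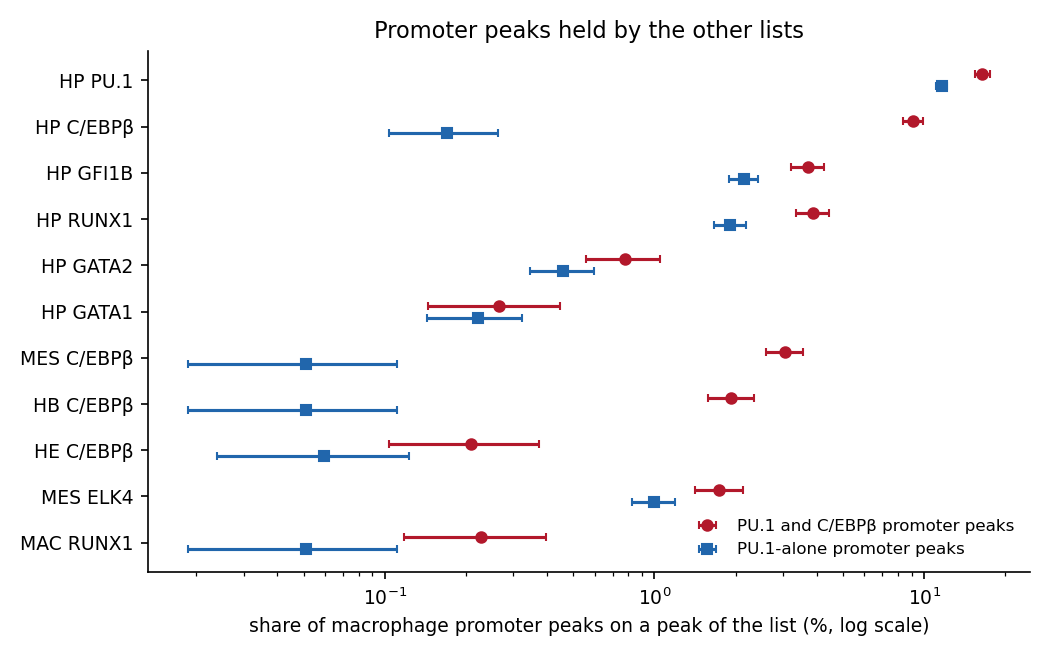
Share (%, log scale) of macrophage promoter peaks that lie on a peak of each of the other lists, for sites with C/EBPβ (circles) and PU.1-alone sites (squares), with 95% Clopper-Pearson intervals. HB GATA2, with none of the sites with C/EBPβ, is left out. HP PU.1 stands at 16.4% and 11.6%, HP C/EBPβ at 9.08% and 0.170%.

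The sites held by the progenitors differed in sequence according to which factor held them. Of the 760 sites on an HP PU.1 peak only, 33.3% (29.9 to 36.8%) held the PU.1 consensus, as did 5.65% of the 372 sites on an HP C/EBPβ peak only. Of the sites on an HP C/EBPβ peak only, 23.7% (19.4 to 28.3%) held the C/EBP consensus, as did 3.03% of those on an HP PU.1 peak only. The PU.1 consensus share was 35.0% (32.5 to 37.6%) in PU.1-alone sites on an HP PU.1 peak only. In the first decile of the deposited order it was 31.0% in sites with C/EBPβ and 34.6% in PU.1-alone sites, and in the last decile 4.74% and 9.98%. CpG-rich sequence made up 37.0% of the sites with C/EBPβ on an HP PU.1 peak only and 54.0% of those on an HP C/EBPβ peak only.

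The site held by the most lists was the promoter of Tal1, which encodes a regulator of blood and erythroid formation. Its peak (chr4:115056784-115057183, centre 24 bp upstream of the TSS) held the C/EBP consensus and lay on 7 other lists, HP PU.1, HP C/EBPβ, HP GATA1, HP GATA2 and the MES, HB and HE C/EBPβ lists. Next came sites on 5 other lists. The Nfe2 promoter (chr15:103258377-103258776), for a partner of small MAF proteins in erythroid cells and megakaryocytes, lay on HP PU.1, C/EBPβ, RUNX1, GATA1 and GATA2 peaks. The shared promoter of Mfsd11 and the splicing factor gene Srsf2, and that of Pcf11, a factor of transcript termination, lay on HP PU.1, C/EBPβ and RUNX1 and on MES and HB C/EBPβ. The Mylk3 promoter lay on HP C/EBPβ, GFI1B, RUNX1, GATA1 and GATA2, and sites at Plekhg2 and Ndufs7 also lay on 5 lists.

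At the level of genes, 5016 of 21774 coding genes (23.0%) had a site with C/EBPβ within 2 kb of a TSS, and 6384 (29.3%) had PU.1-alone sites only. A separate C/EBPβ promoter peak was present at 2103 of the latter. Most genes of the first class (4252) had 1 site with C/EBPβ, 666 had 2, 79 had 3, 15 had 4 and 4 had 5. Those with 5 were Abr, a regulator of RAC signalling, Foxp1, a forkhead factor, Osgin1, an oxidative stress response gene, and Sla, an adaptor of receptor signalling. Among the 15 genes with 4 were Spi1 itself, the chemokine gene Ccl4, the chemerin receptor gene Cmklr1, and Adcy7, an adenylate cyclase gene.

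Genes with a site with C/EBPβ more often had an HP peak at their promoters. Such a peak was counted within 2 kb of any coding TSS of the gene, whether or not it overlapped that site. An HP PU.1 promoter peak was present at 1290 of the 5016 genes (25.7%) and at 992 of the 6384 genes with PU.1-alone sites (15.5%, odds ratio 1.88, adjusted p = 1.3e-40, Fisher's exact test over 6 HP lists). HP C/EBPβ peaks were present at 631 (12.6%) and 192 (3.01%, odds ratio 4.64, exact test, adjusted p = 2.1e-86). The gene classes also differed in the number of PU.1 promoter peaks, with means of 1.99 and 1.39. In a comparison chosen after seeing the data, among genes with a single PU.1 promoter peak (2064 and 4430 genes) the HP PU.1 shares were 17.5% and 11.8% (odds ratio 1.60, adjusted p = 1.7e-09), and within deciles of the deposited order the odds ratio was 1.24 (p = 0.0194, Mantel-Haenszel chi-square test). For HP C/EBPβ, which is subject to the nesting given above, the corresponding odds ratios were 3.88 and 3.92.

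The functions of these genes were described with 27 gene lists compiled from textbook knowledge and chosen with earlier results of these data known. Each share is read against the 23.0% of all coding genes that had a site with C/EBPβ, and no list was tested. In 22 of the 27 lists the share was above that background. Of genes with any PU.1 promoter peak, 44.0% were of the class with C/EBPβ. Read against that share, 19 lists lay above and 8 below. Muscle genes then stood above (3 of 5, 60.0%), and ribosomal proteins (30 of 74, 40.5%), lipid handling (9 of 21, 42.9%), complex I (10 of 29, 34.5%) and the STAT, JAK and SOCS list (5 of 16, 31.2%) below.

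Receptor and sensor lists ranged from 36.0% to 60.9%. Of 36 genes for pattern recognition receptors and their adaptors, 20 (55.6%) had a site with C/EBPβ, among them Tlr2, Tlr4, Cd14, Ly96, Clec7a (the β-glucan receptor dectin-1), Nlrp3 and Myd88, and 10 had PU.1-alone sites only, including Tlr1, Tlr9 and Nod2. The endosomal receptor genes Tlr7 and Tlr8 were among 6 with a C/EBPβ promoter peak and no PU.1 promoter peak. Of 23 Fc receptor and ITAM adaptor genes, 13 (56.5%) had such a site, including Fcgr3, Fcgr4, Trem2, Tyrobp and Sirpa, and 8 of the 13 also had an HP PU.1 promoter peak (61.5%, against 25.7% of all genes of the class). So did 5 of the 6 genes of this list with PU.1-alone sites only (83.3%). Of 23 growth factor and cytokine receptor genes, 14 (60.9%) had a site. They were the receptor genes for M-CSF (Csf1r), GM-CSF and IL-3 (Csf2ra, Csf2rb, Csf2rb2, Il3ra), G-CSF (Csf3r), interferon-γ (Ifngr1, Ifngr2), interleukins (Il1r1, Il6ra, Il10ra, Il10rb) and TNF (Tnfrsf1a, Tnfrsf1b). The genes for the erythropoietin receptor (Epor), Flt3, the type I interferon receptor (Ifnar1, Ifnar2) and Il6st were among 6 with PU.1-alone sites only. Chemoattractant receptors had 9 of 19 (47.4%), integrins 11 of 26 (42.3%), and scavenger and phagocytic receptors 9 of 25 (36.0%), among them Cd68, Marco, Mrc1 and Msr1, whereas 8 had PU.1-alone sites only.

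All 7 genes of the phagocyte NADPH oxidase had a PU.1 promoter peak, and 5 of them (Cybb, Cyba, Ncf4, Rac1 and Rac2) a site with C/EBPβ. Among 42 lysosomal genes, 25 (59.5%) had a site, including Hexa, Npc1, Psap and Ctsl, while Ctsb, Ctsd and Ctss were among the 14 with PU.1-alone sites only. The V-ATPase, which acidifies lysosomes, had 11 of 25 (44.0%). Chemokine and cytokine genes had 16 of 36 (44.4%), including Il1b, Tnf, Il6, Il10, Il12b, Ccl3 and Ccl4, and Ccl2, Csf2 and Cxcl10 were among the 13 with PU.1-alone sites only. Lipid export and cholesterol handling had 9 of 26 (34.6%), including the cholesterol exporter genes Abca1 and Abcg1.

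Regulators were split between the classes. Of 46 myeloid transcription factor genes, 22 (47.8%) had a site with C/EBPβ, including Spi1, Cebpb, Irf5 and the MiT family genes Mitf, Tfe3, Tfeb and Tfec, and 21 had PU.1-alone sites only, including Cebpd, Klf4, Egr2 and Maf. Of 20 NF-κB genes, 10 had a site, among them the inhibitors or modulators Nfkbia, Nfkbib, Nfkbie, Bcl3, Tnfaip3, Tnip2 and Tnip3, the subunit gene Nfkb2 and the kinase complex genes Chuk and Ikbkg. PU.1-alone sites only were present at 9, which were the subunit genes Rela, Relb, Rel and Nfkb1, the inhibitors or modulators Nfkbid, Nfkbiz and Tnip1, and the kinase genes Ikbkb and Ikbke. An HP PU.1 promoter peak was present at 1 of the 10 NF-κB genes with a site and 6 of the 9 with PU.1-alone sites only. Over all genes of these classes the shares were 25.7% and 15.5%. In the AP-1 family 6 of 12 had a site (Jun, Junb, Jund, Fosb, Atf3 and Jdp2). An HP C/EBPβ promoter peak was present at 4 of the 6, against 12.6% of all genes of the class. None of the 5 AP-1 genes with PU.1-alone sites only had one, against 3.01% of all such genes, a comparison subject to the nesting given above. The STAT, JAK and SOCS list stood near the background with 5 of 19 (26.3%), and 11 of its genes had PU.1-alone sites only, among them Socs1, Socs3, Jak1 and Jak2.

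The 5 lists below the background were complement (3 of 23), where the C1q genes C1qa, C1qb and C1qc had PU.1-alone sites only, and those of other lineages or body patterning. Muscle genes had 3 of 30 (10.0%), erythroid genes 2 of 21 (9.52%, Tal1 and Sptb), Hox genes 2 of 39 (5.13%) and endothelial genes 1 of 24 (4.17%, Pecam1, which macrophages also express). MHC class II genes had 3 of 11 (27.3%). Housekeeping lists were mixed. The proteasome had 15 of 32 (46.9%), cytosolic ribosomal proteins 30 of 79 (38.0%) with another 44 (55.7%) PU.1-alone, and respiratory chain complex I 10 of 37 (27.0%). Of 11 genes for the markers of the sort and of macrophages, 6 had a site with C/EBPβ, namely Itgam (CD11b), Adgre1 (F4/80), Cd14, Cd68, Csf1r and Fcgr3.

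**Figure D5:**
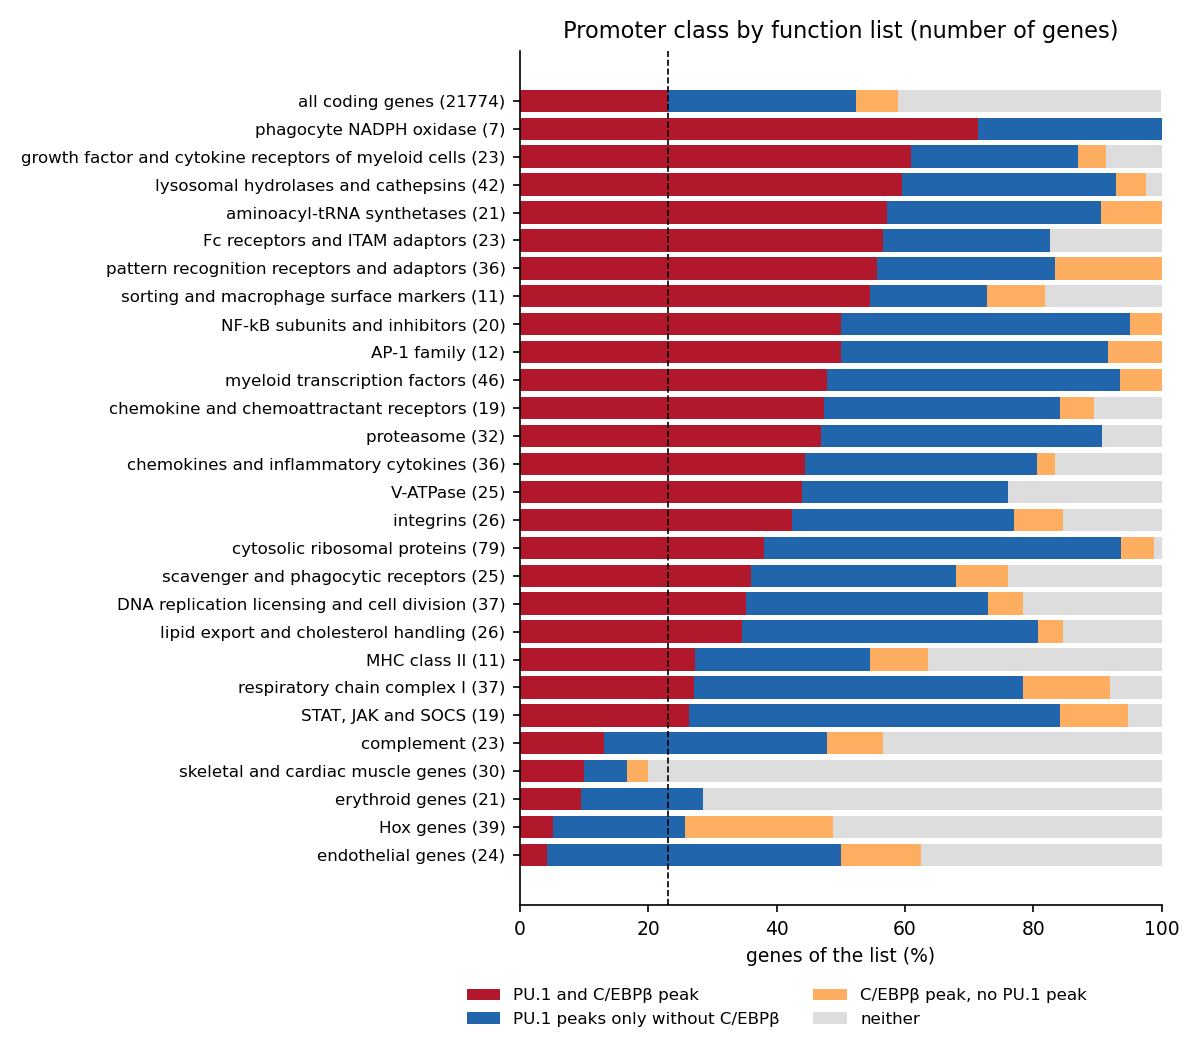
Coding genes of 27 function lists, as shares (%) with a site with C/EBPβ, with PU.1-alone sites only, with a C/EBPβ promoter peak but no PU.1 promoter peak, and with neither; the number of genes is in parentheses. The dashed line is the 23.0% of all coding genes with a site with C/EBPβ. Phagocyte NADPH oxidase (71.4%), growth factor and cytokine receptors (60.9%) and lysosomal genes (59.5%) lie at the top, and endothelial genes (4.17%) at the bottom.

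Aminoacyl-tRNA synthetases, which charge tRNAs in every cell and belong to the genes known to be induced by ATF4 when amino acids are short, had 12 of 21 genes with a site (57.1%). An HP C/EBPβ promoter peak was present at 5 of the 12 (Aars, Gars, Iars, Mars1 and Nars), and an HP PU.1 promoter peak at 1 of the 12 (Rars), where the shares over all genes of the class were 12.6% and 25.7%. Synthetase genes of the other classes had HP C/EBPβ promoter peaks too, 2 of the 7 with PU.1-alone sites only (Farsb and Yars, 28.6%, against 3.01% of all such genes) and Sars, which had a C/EBPβ but no PU.1 promoter peak. The sites at Iars, Mars1 and Nars also lay on a MES C/EBPβ peak. None of the synthetase sites held the C/EBP consensus. After these genes had been seen, the letters of the C/EBP and ATF composite element, TGATGCAA on either strand, were searched. They were present in the sites of Iars, Mars1, Nars, Tars and Wars. The stretches of Tars (chr15:11399659-11399703, minus strand, ending next to the TSS) and Wars (chr12:108893486-108893553, minus strand, 275 to 342 bp upstream) are shown with the element in capitals.
Tars: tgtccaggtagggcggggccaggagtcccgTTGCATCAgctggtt
Wars: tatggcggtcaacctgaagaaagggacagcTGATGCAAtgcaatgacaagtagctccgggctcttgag

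Over all sites, TGATGCAA was found in 96 of 5275 sites with C/EBPβ (1.82%, 1.48 to 2.22%) and 50 of 11766 PU.1-alone sites (0.425%, 0.316 to 0.560%, odds ratio 4.34), against 0.684% of windows around all coding TSS. Its share was higher in distal sites with both factors, at 647 of 18354 (3.53%, 3.26 to 3.80%), a difference that was not tested. Among the 479 sites on an HP C/EBPβ peak, 28 held it (5.85%, 3.92 to 8.34%), and among the 760 on HP PU.1 only, 7 did (0.921%, 0.371 to 1.89%). Of the 28, 3 lay at the synthetase genes Iars, Mars1 and Nars, and the other 25 lay at genes outside that list. By sequence 13 of the 28 were CpG-rich, and 7 also lay on an HP PU.1 peak.

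Of a list of 42 macrophage genes, 31 had a site with C/EBPβ (23.0% of all coding genes did), 8 had PU.1-alone sites only (Klf4, Egr2, Fcgr1, Fcer1g, Cd36, Ctsb, Ctss and Socs3), and Cebpa, Irf8 and Lyz2 had a C/EBPβ promoter peak without a PU.1 promoter peak. The 42 genes were chosen with earlier results of these data known, and 39 of them had a PU.1 promoter peak. Among all coding genes with a PU.1 promoter peak, 44.0% had a site with C/EBPβ. Of the 31, 12 had an HP PU.1 promoter peak and 6 an HP C/EBPβ promoter peak, where the shares over all genes with such a site were 25.7% and 12.6%. The 6 were Spi1, Tfec, Nr1h3, Myd88, Nfkbia and Stat3. At Csf2ra, Csf3r and Tyrobp, counted among the 12, the HP PU.1 peak lay on a PU.1-alone site and not on the site with C/EBPβ. Of the 8 with PU.1-alone sites only, 2 had an HP PU.1 and none an HP C/EBPβ promoter peak.

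Spi1 had 4 sites with C/EBPβ and 3 PU.1-alone sites. The site at chr2:91082893-91083292, centred 687 bp downstream of an annotated TSS, lay on HP PU.1, HP C/EBPβ and HP RUNX1 peaks. That TSS lies well upstream of the one under chr2:91096476-91096875, so this site counts as promoter only through the upstream start. Near the upstream start also lay the site at chr2:91081135-91081534 and the PU.1-alone sites at chr2:91082141-91082540 and chr2:91083753-91084152. The site centred 3 bp upstream of a TSS (chr2:91096476-91096875) held the C/EBP consensus and lay on an HP GFI1B peak, and that at chr2:91098255-91098654, also with the consensus, lay on an HP C/EBPβ peak. None of the 3 PU.1-alone sites lay on another list. The Cebpb gene had a site that shared only 14 bp with the C/EBPβ peak (chr2:167688066-167688465), and 2 PU.1-alone sites.

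Among receptor and sensor genes, Csf1r had its site 256 bp downstream of a TSS on an HP PU.1 peak. Csf2rb had a site centred 27 bp upstream of the TSS, with the PU.1 consensus and on no other list (chr15:78325764-78326163). Tlr4 had a site at chr4:66827435-66827834 with the PU.1 consensus, on an HP PU.1 peak. Cd14 had 2 sites, both on no other list. At Myd88 the PU.1-alone site lay over the TSS and the site with C/EBPβ 1131 bp upstream, with the C/EBP consensus and on an HP C/EBPβ peak (chr9:119340950-119341349). At Tyrobp, which encodes the adaptor DAP12, the PU.1-alone site centred 17 bp upstream of the TSS held the PU.1 consensus and lay on an HP PU.1 peak, and the site with C/EBPβ lay 999 bp upstream on no other list.

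Among effector genes, Il1b had its site 32 bp upstream of the TSS (chr2:129370997-129371396) with the C/EBP consensus and on an HP PU.1 peak. Cd68, a lysosomal glycoprotein of macrophages, had its site over the TSS (chr11:69665953-69666352) with the AP-1 consensus, also on an HP PU.1 peak. Tnf, Ccl3 and Il1rn had sites with C/EBPβ on no other list. Cybb, the catalytic subunit of the NADPH oxidase, had a site 55 bp downstream of a TSS on no other list. The lipid genes Abca1 and Plin2 had sites on no other list, and Nr1h3, which encodes the sterol sensor LXRα, had a CpG-rich site whose PU.1 and C/EBPβ centres were 1 bp apart, on HP C/EBPβ and MES ELK4 peaks. At Nfkbia, the gene of the NF-κB inhibitor, a CpG-rich site with the C/EBP consensus lay on HP and MES C/EBPβ peaks (chr12:55491808-55492207).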

How the data were processed

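The processed data were 14 lists of ChIP-seq peaks, 1 per factor and stage. The authors aligned reads to the mouse genome (mm10) with Bowtie, kept uniquely placed reads without duplicates, called peaks with MACS against input of the same stage, and refined them with polyPeak; bedtools is also in the submitters' processing notes, and versions are not given in the sources used here. They set the p-value cut of each list by eye at known genes. The deposited values are peak positions of equal width with no score. Reads from near-identical genes (for example Csf2rb and Csf2rb2) may be lost by the unique placement.

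TSS, exons and sequence came from RefSeq GRCm38.p6, and curated and predicted coding transcripts were used. Peak ends lay within its chromosome lengths. The 27 function lists (all but Ahsp and Lilrb4b matched), the 42 named genes, the consensus sequences, the sites and most alternatives were chosen with earlier results of these data known. Also named were the sites on the most lists, the genes with the most sites, and sites on HP PU.1 and HP C/EBPβ peaks with both consensus sequences; further genes of the function lists, Plekhg2, Ndufs7, and those at the composite element were chosen after their values were seen. Shares carry exact 95% Clopper-Pearson intervals. Differences between classes were tested with two-sided Fisher's exact tests, Benjamini-Hochberg adjusted within each family, and within deciles by Mantel-Haenszel odds ratios. Python 3.11.15, NumPy 2.4.6, SciPy 1.17.1, statsmodels 0.14.6 and Matplotlib 3.10.9 were used, and the functions were tested on simulated data. Other TSS sets, distances, overlaps, consensus letters and units were tried as alternatives. Results for a few single genes are not reported here.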

Additional observations from a re-analysis of the deposited data

How the results depend on the processing

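The number of promoter sites with C/EBPβ depended on the definition. It was 3239 within 500 bp of a TSS and 3384 with 1 PU.1 peak per gene, and between 3962 and 6351 under the other 6 alternatives. The share on HP PU.1 peaks kept an odds ratio of 1.44 to 1.57 under 11 alternatives and was 0.998 within deciles of the deposited list order, an alternative chosen after seeing the data; the cause was not tested. The PU.1 consensus was lower at sites with C/EBPβ under 11 alternatives (odds ratios 0.596 to 0.874) and not detectably so in CpG-rich peaks alone (0.855), which are fewer. The HP C/EBPβ share (odds ratios 10.6 to 101), the C/EBP consensus (5.66 to 8.18, and 2.69 with the letters TTGCNNAA) and CpG-rich sequence (1.12 to 1.53) stayed past the threshold under every alternative run for them. Searching the C/EBPβ peak as well gave 8.68 for the C/EBP consensus, but lengthened the sequence of the sites with C/EBPβ only, so that value is not a like comparison. Of 27 function lists, 27 stayed on the same side of the background with nearest genes only, and 26 within 500 bp of a TSS. No paired analysis was possible because each factor at each stage had 1 list. Without replicates or peak heights, differences in binding strength could not be read.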
